A study of Mus musculus with 9 samples.

Results

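miR-320-3p (listed as mmu-miR-320-3p) and miR-484 (mmu-miR-484) are mature miRNAs whose precursors reach Dicer without being cut by Drosha. Both were taken by name from the sRNA-seq counts of mouse Meis1/Hoxa9 cells, in which they are 2 of 817 listed miRNAs. The rule used their names and no threshold on a value, but it was set with earlier results of these data known. The cells were preleukemic cultures of C57BL/6 background, made from c-Kit-enriched fetal liver cells that all received retroviral Meis1 and Hoxa9. The paper describes replating with SCF, IL-3, IL-6 and granulocyte-macrophage colony-stimulating factor, and liquid culture with SCF, IL-6 and IL-3. The 4 Tut4/7 cKO libraries came from Tut4 fl/fl; Tut7 fl/fl cells carrying Vav-iCre, a recombinase driven by a promoter active across blood cells. The 5 Tut4/7 CTL libraries, named WT in the labels, came from littermates with the same floxed alleles and no iCre. Donor embryos of both genotypes were taken at the same mid-gestation stage. The RNA of Tut4 and Tut7 was not measured in these libraries, so the deletion itself had no direct check here. The myeloid miRNA miR-223-3p took 0.0972% to 1.22% of miRNA reads and the blood-cell miRNA miR-142a-3p 0.00334% to 0.0165%, while the hepatocyte miRNA miR-122-5p took 0.0529% to 0.142%, and the part of any remaining liver cells in the values was not tested.

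Most miRNA precursors are excised from a longer transcript by the nuclear nuclease Drosha and are then cut by Dicer in the cytoplasm. The precursors of miR-320 and miR-484 are instead made directly by transcription, carry the cap of an RNA polymerase II transcript, and need Dicer only. TUT4 and TUT7 (TUT4/7) are terminal uridylyl transferases that add uridines to the 3′ ends of RNA, miRNAs and their precursors included, and an added uridine is read as T after sequencing. How the precursors were cut was not measured here, so the term Drosha-independent is background.

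The Mir320 hairpin lies at chr14:70680950-70681031 on the plus strand of GRCm39, within an intron of the protein-coding gene Phyhip on the same strand and under an exon of the antisense lncRNA Gm62293. The mature miR-320-3p was located at chr14:70680997-70681018, on the 3′ arm, at bases 48 to 69 of the 82-base hairpin. The Mir484 hairpin lies at chr16:13977490-13977556 on the plus strand, inside an exon of the lncRNA Gm60486 and antisense to the protein-coding gene Marf1. The mature miR-484 was located at chr16:13977494-13977515, on the 5′ arm, at bases 5 to 26 of the 67-base hairpin, in a part that overlaps no Marf1 exon. The genomic base after the mature 3′ end was A for both miRNAs, so that a T at this place was not encoded by either locus. No other listed miRNA shared the seed (bases 2 to 8) of either one, and 0 of their read sequences also fitted another mature sequence.

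The RefSeq mature sequence of miR-484, with its seed in capitals, and the first 30 bases of its hairpin, with the mature part in capitals, show that the templated continuation begins with A (RefSeq, table build GRCm38.p6).
miR-484 mature: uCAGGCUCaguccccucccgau
Mir484 hairpin start: cucgUCAGGCUCAGUCCCCUCCCGAUaaac
The main reads of miR-484 are shown next because the whole comparison rests on their last bases, with added Ts in capitals.
2 bases short: tcaggctcagtcccctcccg
1 base short: tcaggctcagtcccctcccga
mature end: tcaggctcagtcccctcccgat
1 added T: tcaggctcagtcccctcccgatT
2 added Ts: tcaggctcagtcccctcccgatTT
3 added Ts: tcaggctcagtcccctcccgatTTT
The mature miR-484 itself ends in T, so a T added to a read 1 base short gives the full-length sequence and was counted as full length. The mature miR-320-3p ends in A, and a T added to a shortened end of it was not mapped by the authors, who allowed no mismatch.

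The deposited values are raw read counts for each mature miRNA and each read sequence. A read counted as uridylated if 1 to 3 Ts followed the mature 3′ end. Depth was 209702 to 316620 miRNA reads for control libraries and 175462 to 479342 for Tut4/7 cKO. One control library stood apart: in Tut4/7 CTL replicate 2 the median uridylated share over 138 miRNAs (those that reached 10 reads in each of the 9 libraries) was 0.644%, against 3.50% to 4.58% in the other control libraries. That median was 0.0738% to 0.209% in the 4 Tut4/7 cKO libraries.

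The first question was whether loss of TUT4/7 removed the T tails of these miRNAs. Uridylation fell for both in Tut4/7 cKO cells, and it fell to a handful of reads for miR-484. Of miR-320-3p reads, 14.4%, 2.47%, 11.9%, 15.6% and 15.3% were uridylated in Tut4/7 CTL replicates 1 to 5. The corresponding shares were 1.05%, 0.402%, 0.932% and 0.597% in Tut4/7 cKO replicates 1 to 4. All 4 cKO libraries lay below all 5 control libraries, including the low replicate 2. Means were 11.9% ± 5.48 for the controls (SD, n = 5) and 0.744% ± 0.298 for the knockouts (SD, n = 4).

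Of miR-484 reads, 24.9%, 2.59%, 15.6%, 20.7% and 21.9% were uridylated in Tut4/7 CTL replicates 1 to 5. In Tut4/7 cKO replicates 1 to 4 the shares were 0.232%, 0.115%, 0.236% and 0.239%, and they rest on 1, 1, 2 and 1 uridylated reads. The genotypes again did not overlap, and control replicate 2 was again the low control. Means were 17.1% ± 8.79 for the controls (SD, n = 5) and 0.206% ± 0.0605 for the knockouts (SD, n = 4).

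The exact permutation test, two-sided, gave p = 0.0159 for the share of each miRNA, the smallest value that 5 against 4 libraries can give, and 0.0225 after Benjamini-Hochberg adjustment over the 17 share tests made for both. In edgeR's quasi-likelihood test of uridylated against non-uridylated reads, fitted over all 143 miRNAs with enough reads, the log2 fold change of the odds was −4.07 (SE 0.63, adjusted p = 8.42e-05) for miR-320-3p. The log2 fold change of the odds was −6.37 (SE 0.81, adjusted p = 1.73e-05) for miR-484. Lower odds passed the same threshold in 59.4% of tested miRNAs, a set that needed a uridylated read in 3 or more control libraries. An entry rule blind to genotype admitted 151 miRNAs, of which 85 passed with lower odds. Shares without overlap between genotypes, lower in Tut4/7 cKO, occurred in 32.6% of the 138 miRNAs, so the fall as such was shared with much of the repertoire.

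Summed over libraries, 1170 of 9445 miR-320-3p reads were uridylated among controls and 94 of 12664 among knockouts, a share 16.7-fold lower (exact 95% interval of counting error 13.5 to 20.8). For miR-484 the sums were 429 of 2481 and 5 of 2565 reads, a share 88.7-fold lower (37.7 to 275). The wide interval of miR-484 comes from the 5 reads left in Tut4/7 cKO. Ranked by the fitted fall among the 143 tested miRNAs, miR-484 was number 3 and miR-320-3p number 40, and the median log2 fold change was −2.84. The falls of miR-365-1-5p (−6.17) and miR-30e-3p (−6.05) lay within the SE of 0.81 around the −6.37 of miR-484. Its rank was not resolved from theirs.

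**Figure D1:**
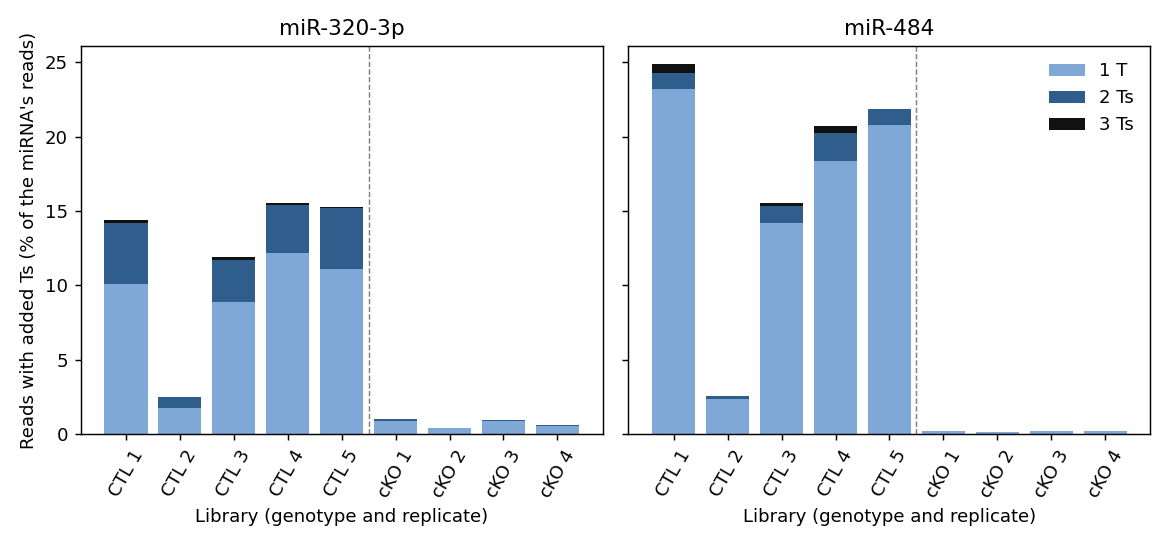
Reads with 1, 2 or 3 added Ts, as a percent of all reads of the miRNA (vertical axis), for each library (horizontal axis). The stacked bars reach 11.9% to 15.6% for miR-320-3p and 15.6% to 24.9% for miR-484 in 4 of the 5 control libraries, 2.47% and 2.59% in CTL 2, and at most 1.05% and 0.239% in the cKO libraries.

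The tails of both miRNAs were next divided by length. In Tut4/7 CTL, single Ts ended 10.1%, 1.77%, 8.85%, 12.2% and 11.1% of miR-320-3p reads, and 2 Ts ended 4.11%, 0.696%, 2.82%, 3.25% and 4.10%. In Tut4/7 cKO the shares with 1 T were 0.878%, 0.402%, 0.900% and 0.545%, and those with 2 Ts were 0.135%, 0, 0.0322% and 0.0519%. Both tail lengths separated the genotypes without overlap (p = 0.0159 each in the exact permutation test, adjusted 0.0225). For all tails together, such separation occurred in 32.6% of the 138 miRNAs, and it was not counted by tail length. The 0 of Tut4/7 cKO replicate 2 allows a share of up to 0.110% (3 counts of 2738 reads).

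For miR-484, single Ts ended 23.2%, 2.36%, 14.2%, 18.4% and 20.8% of reads in Tut4/7 CTL, and 2 Ts ended 1.10%, 0.236%, 1.17%, 1.86% and 1.07%. All 5 uridylated reads of Tut4/7 cKO carried a single T. Reads with 2 Ts numbered 27 over the control libraries and 0 over the knockouts, and the zeros allow a share of up to 0.345% to 0.718% per library. Shares with 1 T separated the genotypes (exact permutation p = 0.0159, adjusted 0.0225), again without a count of other miRNAs at this tail length. For 2 Ts, the 0.236% of control replicate 2 is 1 read and lies under what the zeros allow, so that library could not be separated from the knockouts at this depth. The shares with 2 Ts in the other 4 controls lie above these limits, but they carry counting error too. They rest on 2, 6, 8 and 10 reads in Tut4/7 CTL replicates 1, 3, 4 and 5. Their Wilson intervals begin at 0.304%, 0.536%, 0.946% and 0.584%. Only that of replicate 4 begins above 0.718%, so replicates 1, 3 and 5 were not resolved from every knockout library by counting error.

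Tails of 3 Ts were rare for both miRNAs. For miR-320-3p they came to 11 reads among controls and 1 among knockouts (exact permutation p = 0.0794, adjusted 0.104), and for miR-484 to 4 and 0 (p = 0.238, adjusted 0.253). The genotypes overlapped in both cases, and a difference was not detectable at this depth. Reference sequences ended at 3 Ts, so a longer tail could not be mapped. Neither could a read that continued past the mature end with another base, such as the genomic A. All shares are therefore shares of mapped reads.

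Among tailed reads alone, 2 or 3 Ts were carried by 29.9%, 28.2%, 25.6%, 21.8% and 27.2% of miR-320-3p tails in Tut4/7 CTL. The same share for miR-484 was 6.67%, 9.09%, 8.75%, 11.2% and 4.90%. Every control library showed the larger share on miR-320-3p, and the low replicate 2 lay among the others in both lists. The means were 26.5% ± 3.10 and 8.13% ± 2.42 (SD, n = 5). The shares are not measured alike, since Ts on a miR-484 read 1 base short are counted as a tail 1 T shorter, while tails on shortened miR-320-3p reads are not mapped. How far this moves the difference was not tested. An exact sign-flip permutation test over the 5 libraries gave p = 0.0625, the smallest it can give, and 0.0938 after adjustment over 6 comparisons of the miRNAs with each other.

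The order of the miRNAs by uridylated share was not the same in both genotypes. miR-484 had the higher share in 5 of 5 control libraries and miR-320-3p had the higher share in 4 of 4 Tut4/7 cKO libraries. Exact sign-flip permutation tests of the order within a genotype gave p = 0.0625 over the controls (adjusted 0.0938) and p = 0.125 over the knockouts (adjusted 0.15), each the smallest that its number of libraries can give, so neither could pass the threshold. The share of miR-320-3p divided by that of miR-484 was 0.579, 0.951, 0.764, 0.753 and 0.697 in Tut4/7 CTL and 4.51, 3.50, 3.94 and 2.49 in Tut4/7 cKO. The ratios did not overlap, and their means of 0.749 ± 0.135 (SD, n = 5) and 3.61 ± 0.853 (SD, n = 4) differed in the exact permutation test (p = 0.0159, adjusted 0.0225). This ratio was chosen after the shares were seen, and in Tut4/7 cKO each of its values rests on 1 or 2 uridylated miR-484 reads. How many other pairs of miRNAs separate the genotypes by such a ratio was not counted.

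The next comparison set each miRNA beside the other miRNAs of the same library. The share of miR-320-3p minus the median of the 137 others averaged 8.60 ± 3.93 percentage points over the controls (SD, n = 5) and 0.617 ± 0.273 over the knockouts (SD, n = 4). For miR-484 the averages were 13.8 ± 7.36 and 0.0786 ± 0.0479 percentage points. Both differences shrank without overlap between genotypes (exact permutation p = 0.0159, adjusted 0.0225), as a difference in points must when all shares approach 0. How many other miRNAs separate the genotypes by this difference was not counted.

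A ratio to the same median, added after these values were seen, gave another picture for miR-320-3p. Its share was 3.88, 4.07, 3.40, 3.67 and 3.38 times the median in Tut4/7 CTL and 10.0, 5.55, 4.58 and 4.68 times in Tut4/7 cKO (exact permutation p = 0.0159, adjusted 0.0225). The cKO ratios were all higher, but against the median of 46 deeply read miRNAs (200 reads or more in each library) they ranged from 1.25 to 3.71, around the 1.86 to 2.51 of Tut4/7 CTL (difference 0.222, exact permutation p = 0.651). A higher ratio of miR-320-3p in Tut4/7 cKO therefore depended on which miRNAs formed the median.

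The share of miR-484 was 6.70, 4.28, 4.45, 4.88 and 4.85 times the median of the 137 others in Tut4/7 CTL. It was 2.22, 1.59, 1.16 and 1.88 times the median in Tut4/7 cKO. The genotypes did not overlap (exact permutation p = 0.0159, adjusted 0.0225), and the same held against the 46 deeply read miRNAs, where the ratios were 2.17 to 3.22 in Tut4/7 CTL and 0.333 to 0.929 in Tut4/7 cKO. By either median the miR-484 ratio was lower in Tut4/7 cKO, but each cKO value rests on 1 or 2 uridylated miR-484 reads. How many other miRNAs separate the genotypes by this ratio was not counted. Control replicate 2, low on the scale of shares, lay among or next to the other controls in its ratios to the median of the 137 others. Against the 46 deeply read miRNAs, its miR-484 ratio of 2.17 was the lowest of the controls, the others being 2.81 to 3.22.

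**Figure D2:**
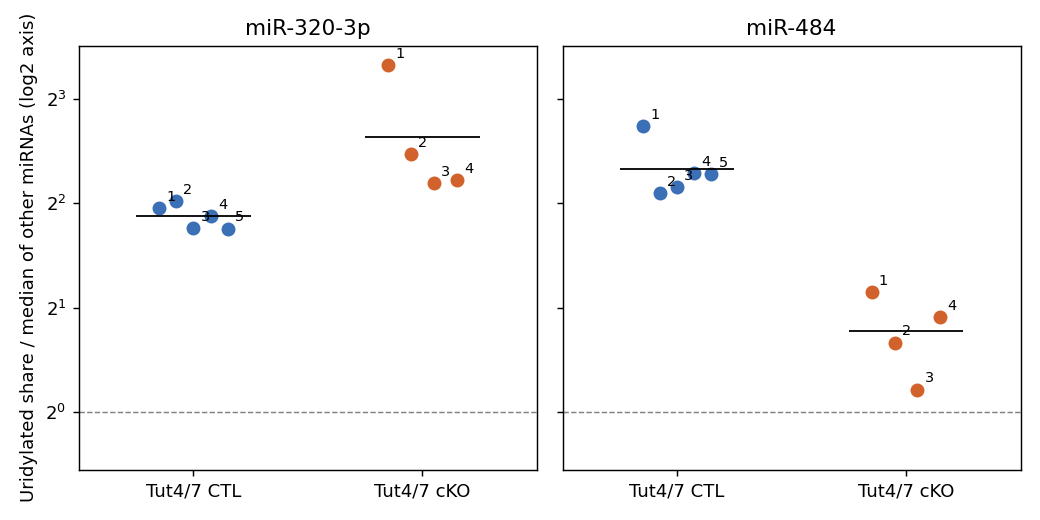
Uridylated share divided by the median uridylated share of the 137 other miRNAs that reached 10 reads in each library (vertical axis, log2 scale), by genotype. Points are libraries numbered by replicate and horizontal lines are means; miR-484 falls from 4.28 to 6.70 in Tut4/7 CTL to 1.16 to 2.22 in Tut4/7 cKO, while the higher cKO values of miR-320-3p were not seen against the 46 deeply read miRNAs.

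**Figure D3:**
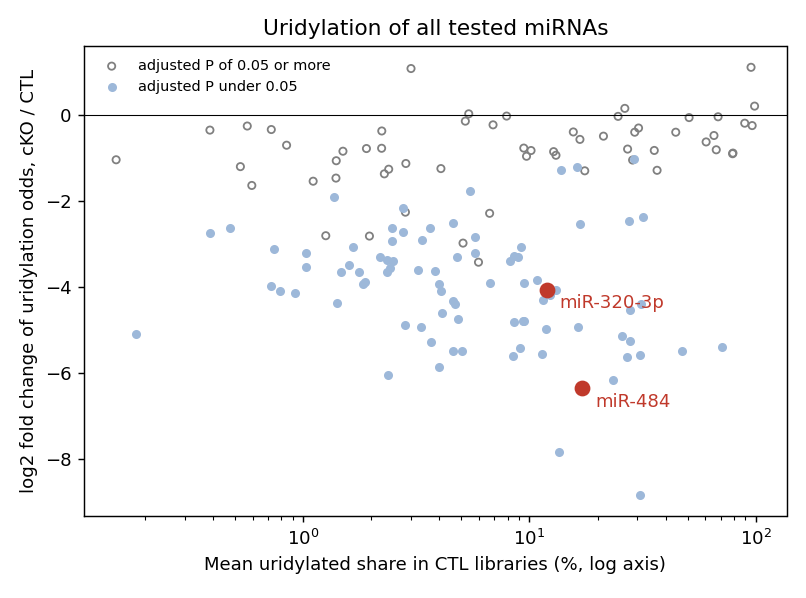
Log2 fold change of uridylation odds, Tut4/7 cKO over Tut4/7 CTL (vertical axis), against the mean uridylated share in Tut4/7 CTL in percent (horizontal axis, log scale), with 1 point for each of the 143 tested miRNAs. Filled points passed an adjusted p of 0.05 in edgeR; miR-484 lies at −6.37 and miR-320-3p at −4.07, below the median of −2.84.

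The ends of the reads were examined beyond the Ts. Reads ending at the mature 3′ end made up 61.6% ± 5.17 of miR-320-3p in the controls (SD, n = 5) and 71.9% ± 6.84 in the knockouts (SD, n = 4). For miR-484 they made up 58.3% ± 8.54 and 67.1% ± 5.36. These shares rise wherever tailed reads leave the total, and were not tested on their own.

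Reads of miR-320-3p that ended before the mature 3′ end made up 26.1%, 28.0%, 26.9%, 29.1% and 22.3% in Tut4/7 CTL and 25.5%, 23.2%, 23.0% and 37.5% in Tut4/7 cKO. The genotypes overlapped, with replicate 4 of Tut4/7 cKO as the highest of the 9 libraries (exact permutation p = 0.841). The means were 26.5% ± 2.58 and 27.3% ± 6.91, and without that library the difference, cKO minus CTL, turned to −2.58 percentage points (exact permutation p = 0.214).

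Shortened reads of miR-484 made up 29.8%, 36.1%, 18.5%, 25.1% and 13.6% in Tut4/7 CTL and 29.5%, 34.3%, 27.4% and 39.5% in Tut4/7 cKO. The means were 24.6% ± 8.91 (SD, n = 5) and 32.7% ± 5.37 (SD, n = 4), and the ranges overlapped (exact permutation p = 0.159, adjusted 0.193). Shortened shares without overlap, higher in Tut4/7 cKO, occurred in 8.7% of the 138 miRNAs, and neither miR-320-3p nor miR-484 was among them. Shortened shares also rise where tailed reads leave the total, and how much of any difference this makes was not tested.

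**Figure D4:**
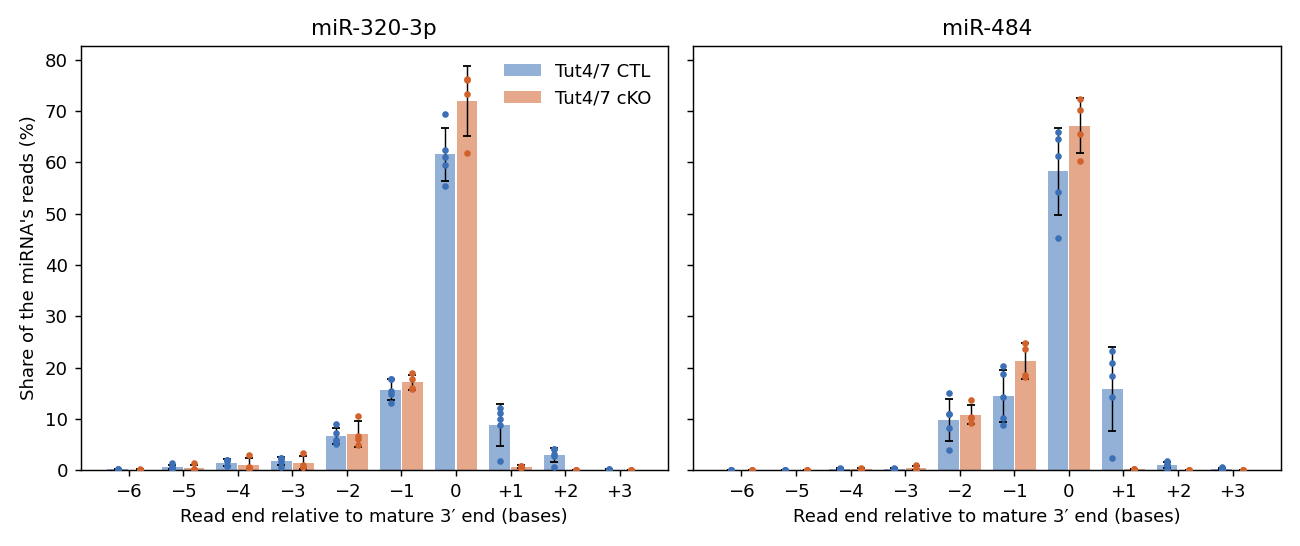
Share of the reads of each miRNA, in percent (vertical axis), by the distance of the read end from the mature 3′ end in bases (horizontal axis). Bars are means, error bars the SD and points the libraries, 5 Tut4/7 CTL and 4 Tut4/7 cKO. Positive distances are added Ts, which are near 0 in Tut4/7 cKO. Among mapped reads the most frequent end is the mature one in both genotypes, and ends continuing with a base other than T could not be mapped.

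The 5′ end of a miRNA sets its seed, and the starts of miR-320-3p reads were compared between genotypes as well. Reference sequences began at the mature 5′ base, so a read starting before that base could not be mapped. Reads starting past the mature 5′ base made up 5.97%, 5.12%, 6.30%, 6.21% and 5.51% of miR-320-3p in Tut4/7 CTL and 2.57%, 4.2%, 3.92% and 3.71% in Tut4/7 cKO. The genotypes did not overlap, control replicate 2 included. The means were 5.82% ± 0.497 (SD, n = 5) and 3.60% ± 0.717 (SD, n = 4), and the exact permutation test gave p = 0.0159 (adjusted 0.0225). Lower shares without overlap occurred in 0.725% of the 138 miRNAs, which was miR-320-3p alone, and higher shares without overlap in another 0.725%, which was miR-378a-5p. Under permuted labels, non-overlap in either direction has a probability of 0.0159. The observed frequency over the 138 miRNAs is near that rate, so no difference particular to miR-320-3p was established. The median miRNA had few shifted reads, 0.0914% to 0.235% in Tut4/7 CTL and 0.0450% to 0.205% in Tut4/7 cKO, which left others little room to separate.

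The uridylated share of miR-320-3p was also taken by the start of the read. Among its reads with the mature 5′ start, 14.6%, 2.60%, 12.3%, 15.7% and 15.6% were uridylated in Tut4/7 CTL and 1.04%, 0.343%, 0.971% and 0.593% in Tut4/7 cKO. Among the 76 to 143 reads per library with a shifted start, the shares were 10.8%, 0, 6.03%, 14.4% and 10.1% in Tut4/7 CTL and 1.32%, 1.74%, 0 and 0.699% in Tut4/7 cKO. The shifted reads are few, and no test was made on them. For miR-484 a start past the mature 5′ base was near absent in both genotypes, with 0 to 2 reads per library (exact permutation p = 0.238). Starts before that base could not be seen.

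Abundance was compared as CPM, read counts scaled to library size with TMM factors. Neither miRNA passed the threshold. miR-320-3p stood at 6954, 5955, 5414, 7414 and 8797 CPM in Tut4/7 CTL and at 20219, 7439, 7100 and 9695 CPM in Tut4/7 cKO. The genotypes overlapped, and replicate 1 of Tut4/7 cKO, the library with the fewest reads, was well above all the others. The log2 fold change was 0.69 (SE 0.34, edgeR adjusted p = 0.353), and 0.23 without that library (adjusted p = 0.757).

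miR-484 stood at 808, 1597, 1512, 1500 and 3502 CPM in Tut4/7 CTL and at 2943, 2364, 1931 and 1051 CPM in Tut4/7 cKO. The control libraries alone covered the full range of the cKO libraries, with replicate 1 as the lowest and replicate 5 as the highest. The log2 fold change was 0.22 (SE 0.45, edgeR adjusted p = 0.851). In the same fit 0.488% of 205 tested miRNAs passed the threshold. Fewer cells of a type and less RNA per cell cannot be told apart in these bulk libraries.

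**Figure D5:**
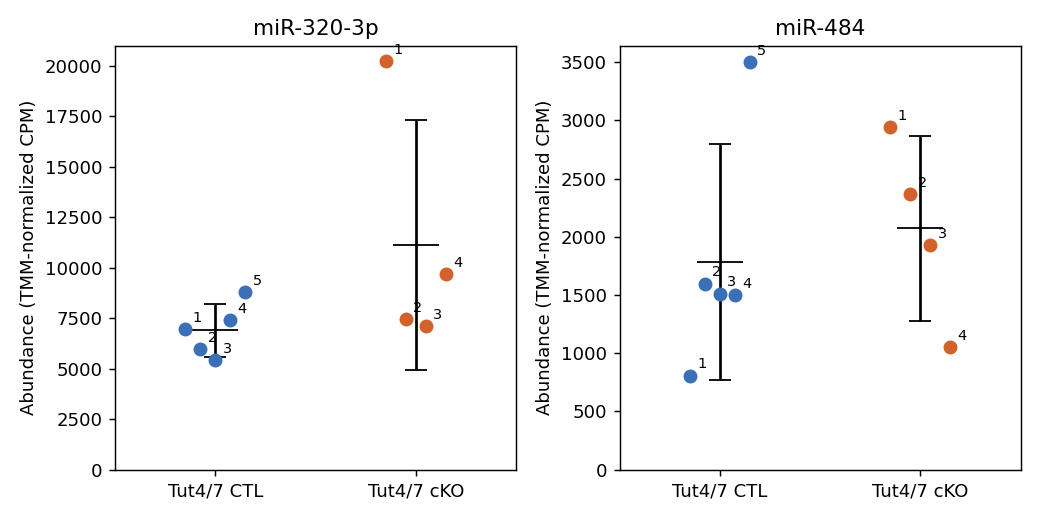
TMM-normalized CPM of each miRNA (vertical axis, from 0) by genotype. Points are libraries numbered by replicate, and lines are the mean and SD (5 Tut4/7 CTL, 4 Tut4/7 cKO); the genotypes overlap for both miRNAs, and cKO replicate 1 reaches 20219 CPM of miR-320-3p.

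Within libraries, miR-320-3p was number 15 to 31 by read count and miR-484 number 40 to 68. miR-320-3p outnumbered miR-484 in 9 of 9 libraries (exact sign-flip permutation p = 0.00391, adjusted 0.0117 over 6 comparisons). The miRNAs have the same mature length of 22 bases, and ligation efficiency for each sequence was not measured.

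Other miRNAs made without Drosha or without Dicer gave few reads. The list held miR-320-5p, which is the other arm of Mir320, 5 listed mirtron products and the Dicer-independent miR-451a. Mirtrons are spliced introns that Dicer cuts. miR-320-5p had 1 read in all 9 libraries, miR-1224-5p had 1, and miR-451a had 2 in the controls and 3 in the knockouts. Of the 8 names sought, 7 were listed and 1, the mirtron product miR-877-3p, had enough reads for either test. The log2 fold change of its abundance was 0.91 (SE 0.59, edgeR adjusted p = 0.515). Uridylated reads of miR-877-3p numbered 14 of 62 among controls and 1 of 102 among knockouts, and the log2 fold change of its odds was −4.39 (SE 1.31, edgeR adjusted p = 0.0101).

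Across the 9 libraries, which share genotype and depth as sources of variation, the uridylated share of miR-320-3p correlated with that of miR-484 at Pearson r = 0.988. The miRNAs nearest to miR-320-3p by this measure were miR-423-3p (r = 0.998), miR-128-3p (0.996) and miR-1981-5p (0.992). Those nearest to miR-484 were miR-423-3p (0.995), let-7g-5p (0.994) and let-7f-5p (0.988). By log2 CPM the pair followed each other less closely (r = 0.429). On that scale miR-151-3p (0.884), miR-340-5p (0.821) and miR-23a-5p (0.790) lay nearest to miR-320-3p, and miR-1964-3p (0.933), miR-23b-5p (0.926) and miR-92a-3p (0.883) nearest to miR-484. The high values for uridylation contain the difference between genotypes that most tested miRNAs shared.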

How the data were processed

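sRNA-seq libraries of 5 Tut4/7 CTL and 4 Tut4/7 cKO cultures were analysed, grouped by the sample labels. The authors selected small RNA on a gel, removed adapters (cutadapt 5.0, per the submitters' processing notes), and mapped reads without mismatch (Bowtie 1.3.1) to miRBase mature sequences extended by 3 Ts. The authors deposited raw counts for each mature miRNA and for each read sequence, without normalization, and used DESeq2 1.42.1 for their own comparisons. A genome build is not given in the sources used here, and coordinates come from an exact match of the reads to GRCm39 with GENCODE annotation. The deposited table equaled the summed read sequences in all libraries, with 0 differences. Replicates are described by the authors as independent, but their animals are not matched to the labels, so p-values measure the spread between these libraries.

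Abundance was tested with edgeR 4.0.16 (R 4.3.3; TMM, glmQLFit, glmQLFTest) for miRNAs that reached 10 reads in 4 or more libraries. Uridylation was tested in edgeR on uridylated and other reads, with library as a factor and genotype acting on the read class. It took miRNAs that reached 10 reads in 5 or more libraries and had a uridylated read in 3 or more of the controls. Benjamini-Hochberg adjustment ran over all miRNAs tested, with a threshold of 0.05. Shares per library were compared with exact two-sided permutation tests (SciPy 1.17.1). Wilson 95% intervals of a uridylated share were 0.494 to 3.49 percentage points wide for miR-320-3p and 0.628 to 12.5 for miR-484. Reads carried no molecular identifiers, so these intervals, the exact intervals of pooled folds and the limit of 3 counts for a 0 cover counting error only. The models were tested on simulated data.

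The members and lists were chosen with earlier results of these data known. Named miRNAs were both members, the other arm of Mir320, a list of mirtron products and miR-451a, any miRNA sharing a member's seed, and the 3 most correlated with each member by log2 CPM and by uridylated share among those that reached 10 reads in each library. miR-223-3p, miR-142a-3p and miR-122-5p were added to check the cell type. Mature sequences came from RefSeq where it held the name, which was so for 707 of the 817, and where the reads fitted its entry. The reads of 5 listed miRNAs differed from it. Other sequences, that of miR-320-3p among them, were rebuilt from the reads, so its length, seed and last base rest on these data. Alternatives were DESeq2 1.42.0, its size factors, other read minimums, an entry rule blind to genotype, a quasi-binomial model and uridylated reads alone. Further alternatives were reads with the mature start, odds against full-length reads, a replicate block, and leaving out each library. Ratios were added after the data were seen.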

Additional observations from a re-analysis of the deposited data

Results flagged for a closer look

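A library was marked where its gap to the nearest library of its genotype was large against the range of that genotype by Dixon's criterion, which chance meets in about 1 of 20 groups. This held in 6 of 38 groups. That rate does not apply to counts this low, since a group at 0 in all libraries but 1 meets the criterion by construction. Some measures also share the same reads, so the number of marked groups was not compared with the rate. The uridylated share of miR-320-3p was 2.47% in replicate 2 of Tut4/7 CTL, against 11.9% to 15.6% elsewhere among controls. Its share with 3 Ts was 0.0338%, or 1 read, in Tut4/7 cKO replicate 1 and 0 in the other cKO libraries. For miR-484, the uridylated share and the share with 1 T were each 0.115% in Tut4/7 cKO replicate 2 and 0.232% to 0.239% in the others, a gap that rests on 1 or 2 reads per library. The share of miR-484 reads with a shifted 5′ start was 0.115%, again 1 read, in that library and 0 in the others. The uridylated share of miR-484 divided by the median of the other miRNAs was 6.70 in replicate 1 of Tut4/7 CTL, which held 181 miR-484 reads, against 4.28 to 4.88 elsewhere among controls.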

How the results depend on the processing

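The fall in uridylation passed the threshold in all 16 alternatives to the main edgeR test. Log2 fold changes were −4.50 to −3.27 for miR-320-3p and −6.88 to −6.11 for miR-484. These ranges include the quasi-binomial model, which was not fitted in edgeR. They also include uridylated reads alone, a change in abundance and not in odds, which gave the −3.27. The number of miRNAs with lower uridylation was 85 of 143, and it was 48 with a minimum of 200 reads, which admitted 73 miRNAs, and 61 to 100 without 1 library. The number past the abundance threshold was 1, and it was 11 with DESeq2, 18 with no filter on low counts, 0 with a minimum of 20 reads and 0 to 2 without 1 library; the cause was not tested. Abundance of miR-484 without 1 library ranged from −0.0017 to 0.51 on the log2 scale, the lowest without Tut4/7 cKO replicate 1, and that of miR-320-3p from 0.23 to 0.85. The 3-T share of miR-320-3p differed by −0.140 to −0.0857 percentage points without 1 library, and only without Tut4/7 CTL replicate 2 did its exact permutation p, 0.0286, pass the threshold. The shortened share of miR-320-3p differed by −2.58 to 2.27 points, with −0.208 without Tut4/7 CTL replicate 5. The ratio of miR-320-3p to the median of other miRNAs differed by 0.222 with the deeply read miRNAs. With miRNAs not followed by a genomic T the median was 0 in 2 cKO libraries, and no ratio could be computed. Replicate numbers did not pair the libraries: deviations of same-numbered libraries correlated at −0.125, −0.273, 0.356 and 0.149. With the replicate number as a block, 0 miRNAs passed for abundance and 73 for uridylation, and the log2 fold changes of uridylation were −3.88 for miR-320-3p and −6.17 for miR-484. Depth limits the shares of miR-484, which had 181 reads in Tut4/7 CTL replicate 1, and 418 to 870 reads per Tut4/7 cKO library with 1 or 2 of them uridylated.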
